A study of Mus musculus with 6 samples.

Results

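*Sgk1* encodes serum/glucocorticoid regulated kinase 1, and the data described here are those of its 6 RefSeq transcripts and of 3 related kinase genes, *Sgk3*, *Akt1* and *Akt2*. These 4 genes were taken by gene name from tables of 20631 genes in each of 6 samples, and they have 13 of the 30352 transcripts. *Sgk1* was chosen by the lower level of its NM_011361 transcript with 1 µM RA, so its values are a description without a test, and *Sgk3*, *Akt1* and *Akt2* were added as its relatives. The samples are neuromesodermal progenitors (NMPs), caudal cells of the embryo that can form both spinal cord and presomitic mesoderm. They were made in culture from mouse embryonic stem cells (ESCs) by 2 days of bFGF and 1 day of bFGF with the WNT agonist CHIR99021. The cells then spent 2 h in N2B27 medium without bFGF or CHIR99021, with the DMSO vehicle, 25 nM retinoic acid (RA) or 1 µM RA, and 2 samples were sequenced for each of these 3 conditions. The duplicates came from separate culture dishes that the methods call technical replicates, so p-values measure the spread between dishes. The labels give the strain as 129 R1 while the methods name C57BL/6 ESCs grown on fibroblast feeders.

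SGK and AKT kinases belong to the AGC group of serine/threonine kinases and phosphorylate a similar sequence in their substrates. PI3-kinase at the membrane, PDK1 and the mTORC2 complex switch them on, and phosphatases of lipids and kinases switch them off. SGK1 differs from AKT in that its RNA and protein turn over quickly and its gene is induced by serum and glucocorticoids, whereas AKT genes are known as steadily expressed. FOXO transcription factors, the kinase GSK3, the NDRG1 protein and several ion transporters are substrates or targets of 1 or both groups.

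The samples responded to RA and carried NMP markers. All 6 genes fixed as a check of the RA response rose at both doses, among them *Cyp26a1*, an RA-degrading enzyme, with a log2 change of 2.40 at 1 µM RA. All 8 NMP markers had a mean of at least 1 RPKM (reads scaled to transcript length and library size), and *T* was at 375 RPKM in DMSO. At 1 µM RA 3 NMP markers rose and 3 fell, among them *Sox2*, a neural and NMP factor, with a log2 change of 1.64, and *Msgn1* and *Tbx6*, factors of presomitic mesoderm, from 27.4 to 14.8 RPKM and from 8.59 to 5.92 RPKM. At 25 nM RA 4 rose and 3 fell. Of all genes, 8.54% were called higher and 11.2% lower at 1 µM RA, and 4.5% and 3.55% at 25 nM RA. The pluripotency factor *Pou5f1* was also high at 445 RPKM, and the summed ESC markers lay between 459 and 495 RPKM in all 6 samples. Of 7 feeder fibroblast markers, 2 reached a mean of 1 RPKM. The sum of all 7 was 5.94 to 6.27 RPKM in DMSO and 5.26 to 5.43 RPKM with 1 µM RA. Of the 6 feeder markers tested, 3 fell and 0 rose at 1 µM RA, where 11.2% of all genes were called lower. Their median log2 change was -0.31, and 0 fell or rose at 25 nM RA. Summed endoderm markers were lower with RA, at 36.1 to 36.9 RPKM in DMSO, 29.0 to 29.3 RPKM at the lower dose and 27.0 to 28.3 RPKM at the higher. Of the 4 endoderm markers tested, *Sox17*, *Foxa2* and *Gata6* fell at both doses, the calls of *Gata6* being lost under 4 of 12 alternatives at 25 nM RA and 9 of 12 at 1 µM RA, among them leaving out DMSO replicate 1 (adjusted p = 0.51 and 0.58). No marker of these lists was at 0 in every sample. The part of endoderm cells, feeder cells and NMP marker changes in the results below was not tested. Fewer cells of a type and less RNA per cell cannot be told apart in these bulk samples. The tables hold 31753556 to 42029348 estimated counts a sample, and the counts of duplicates differed by more than sampling noise.

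*Sgk1* lies on the plus strand of chromosome 10, from 21882184 to 21999902 of mm10, and its 6 transcripts differ at their 5′ ends. In the GENCODE annotation of the same build they share 11 exons with 2295 bases. The part that each transcript does not share was between 104 bases (NM_001161848) and 810 bases (NM_001161845), which is 4.3% to 26.1% of their lengths. NM_011361, which starts at 21994666, has 160 bases of its own in a first exon, 6.5% of its 2455 bases. NM_001161850 starts 776 bases upstream of it, NM_001161849 2443 bases, NM_001161848 8562 bases, NM_001161847 15994 bases and NM_001161845 112482 bases. NM_001161848 has no GENCODE transcript with the same start, so its own part is its length less the shared exons. The alternative first exons change the N terminus, and the encoded proteins have 431 residues for NM_011361, 445 for NM_001161850, 417 for NM_001161849, 404 for NM_001161847 and 524 for NM_001161845. The N terminus is known to direct SGK1 to membranes and to its rapid degradation.

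**Figure D1:**
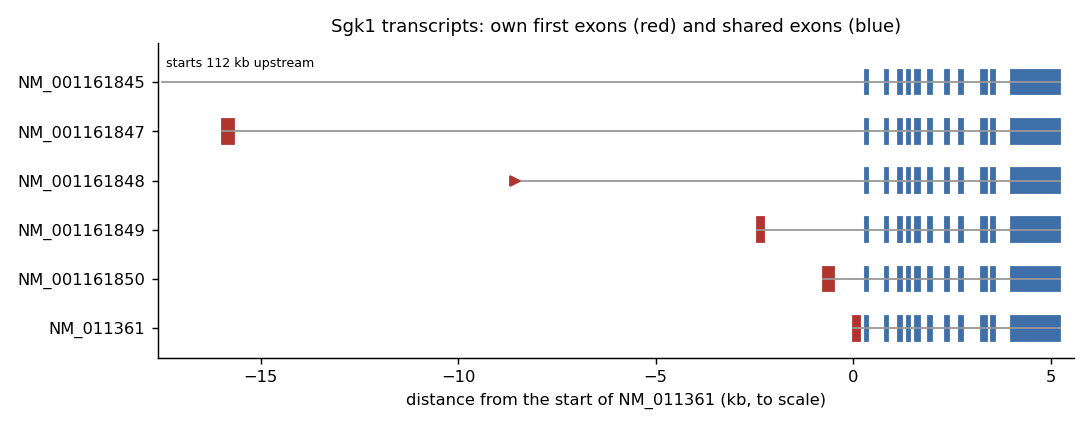
Map of the 6 *Sgk1* transcripts along the gene, with the distance from the start of NM_011361 in kb on the x axis, own first exons in red and the 11 shared exons in blue. NM_001161848 is drawn with a red mark at its start and with the shared exons of the others, and NM_001161845 begins 112482 bases upstream, beyond the left edge.

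The bases in front of the 4 most abundant starts are shown because each transcript has a start of its own. They are the 250 bases upstream of each start on the plus strand, from RefSeq (GRCm38.p6), at chr10:21994416-21994665 for NM_011361, chr10:21985854-21986103 for NM_001161848, chr10:21993640-21993889 for NM_001161850 and chr10:21991973-21992222 for NM_001161849. Capitals mark matches to the motifs searched on both strands.
NM_011361: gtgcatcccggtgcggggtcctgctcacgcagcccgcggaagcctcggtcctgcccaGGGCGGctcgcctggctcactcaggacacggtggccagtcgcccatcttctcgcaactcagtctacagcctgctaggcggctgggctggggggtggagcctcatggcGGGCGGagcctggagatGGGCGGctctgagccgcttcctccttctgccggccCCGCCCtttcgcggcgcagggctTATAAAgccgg
NM_001161848: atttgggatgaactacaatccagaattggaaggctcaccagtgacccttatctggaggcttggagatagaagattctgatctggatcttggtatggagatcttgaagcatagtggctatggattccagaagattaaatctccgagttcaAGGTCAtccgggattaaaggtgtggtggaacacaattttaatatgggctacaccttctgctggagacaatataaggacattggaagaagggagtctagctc
NM_001161850: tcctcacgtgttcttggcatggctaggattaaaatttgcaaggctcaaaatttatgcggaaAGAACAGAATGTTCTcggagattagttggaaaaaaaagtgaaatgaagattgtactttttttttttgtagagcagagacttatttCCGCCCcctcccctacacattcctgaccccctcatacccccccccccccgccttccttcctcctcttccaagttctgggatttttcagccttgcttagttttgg
NM_001161849: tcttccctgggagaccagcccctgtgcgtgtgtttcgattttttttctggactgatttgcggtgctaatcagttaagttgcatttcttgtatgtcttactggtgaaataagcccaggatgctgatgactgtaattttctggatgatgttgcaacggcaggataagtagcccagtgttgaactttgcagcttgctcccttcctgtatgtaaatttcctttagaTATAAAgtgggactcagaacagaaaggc

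The promoter of NM_011361 was the richest in G and C of the 6, with 70.4% against a median of 52.4% over 32851 mouse promoters of the same length. It held 4 copies of GGGCGG, the core of an Sp1 site, which 32.7% of all promoters had at least once, and TATAAA (12.4% of all) beginning 11 bases before the start. The promoter of NM_001161849 also held TATAAA, beginning 28 bases before its start. The window of NM_001161850 held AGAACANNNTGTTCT, the full palindrome that glucocorticoid receptors bind, beginning 189 bases before the start, and 3 of the 32851 promoters (0.00913%) had it. AGGTCA, the half-site of many nuclear receptors including RA receptors, was found in the windows of NM_001161848 and NM_001161847 and in 14.0% of all promoters. Neither AGGTCANNAGGTCA nor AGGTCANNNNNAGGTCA, the direct repeats with spacers of 2 and 5 bases, matched in any of the 6 windows, and each was found in 3 promoters of all. TGTTTAC, a FOXO site, matched in none of the 6 and in 3.17% of all promoters. A match describes these letters and does not show that a factor binds. For the shared start of both *Akt1* transcripts, the window had 78.4% G and C and 4 matches to GGGCGG, which overlap in part.

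*Sgk1* RNA was lower in every RA-treated sample than in either DMSO sample. Summed over its transcripts, it was at 46.9 and 46.8 RPKM in DMSO, 31.2 and 31.4 at 25 nM RA, and at 1 µM RA 27.9 and 28.2. The 3 conditions do not overlap, and the duplicates of a condition lie within 0.366 RPKM of each other. The level at 25 nM RA was 0.665 times that of DMSO, a log2 change of -0.59 (standard error of the fit, SE, 0.0486), and at 1 µM RA it was 0.595 times, a log2 change of -0.75 (SE 0.0489). Between the doses the log2 difference was -0.16 (SE 0.0501), so that 82.7% of the difference in mean RPKM at 1 µM RA was already present at 25 nM RA. The gene was chosen by its NM_011361 transcript at 1 µM RA, and these values are not independent of that choice. As background, 3.55% of the 15143 genes tested were called lower at 25 nM RA, 11.2% at 1 µM RA and 2.62% between the doses. Calls were made by edgeR's likelihood ratio test at an adjusted p under 0.1. The median log2 change of all genes tested was -0.0005 at the lower dose and 0.0013 at the higher.

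In DMSO, *Sgk1* ranked 1436 of 20631 genes by RPKM and was above its relatives described here. Per length, *Akt1* followed with 25.8 RPKM, *Akt2* with 22.4 RPKM, *Sgk3* with 2.15 RPKM and *Sgk2* with 0.0383 RPKM, and neighbours in this order did not overlap between samples. *Sgk1* kept the first place with 1 µM RA, where its lowest sample was at 27.9 RPKM and the highest *Akt1* sample at 26.0 RPKM. *Sgk1* made up 48.2% ± 0.254 (SD, n = 2) of the summed RPKM of these 5 genes in DMSO, then 38.1% ± 0.532 at the lower dose and 36.2% ± 0.596 at the higher. Among SGK genes alone its share was 95.5% in DMSO and 92.8% with 1 µM RA.

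**Figure D2:**
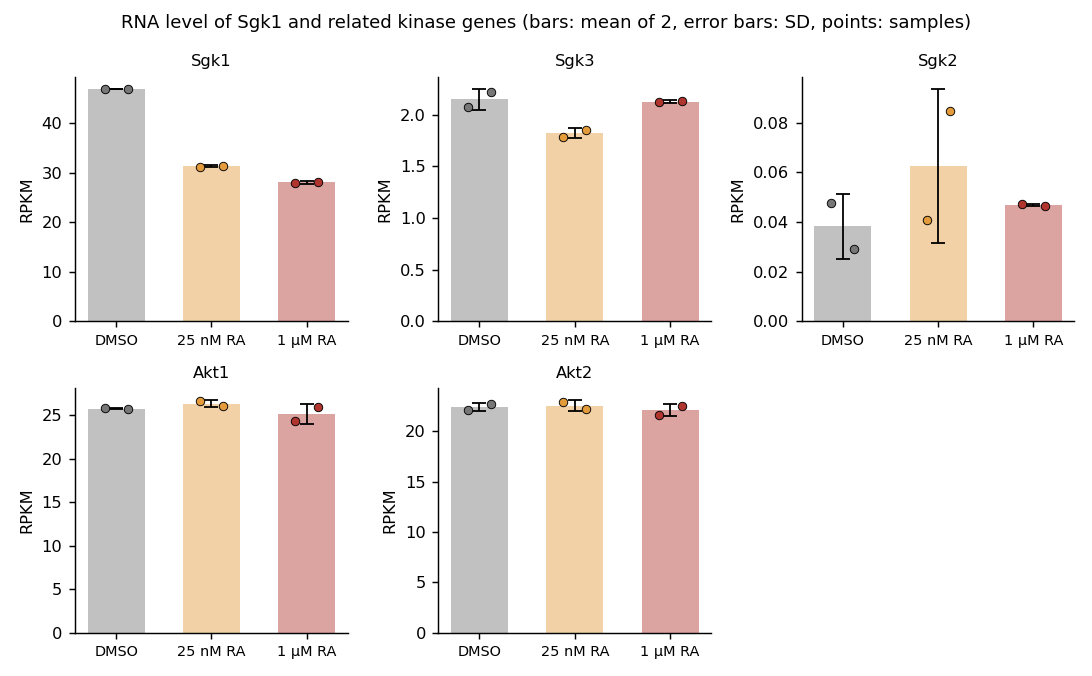
RPKM of *Sgk1*, *Sgk3*, *Sgk2*, *Akt1* and *Akt2* on the y axes, by condition, with a point for each sample, bars for the mean of 2 samples and error bars for the SD. *Sgk1* drops from about 46.9 to 28.0 RPKM between DMSO and 1 µM RA, while *Akt1* and *Akt2* stay between 21.7 and 26.7 RPKM in all 6 samples.

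Most of the *Sgk1* RNA was assigned to NM_011361. This transcript was at 36.4 and 36.2 RPKM in DMSO, 24.1 and 25.5 at 25 nM RA, and at 1 µM RA 20.1 and 20.7. Its 3 conditions do not overlap, with log2 changes of -0.55 (SE 0.0595) at 25 nM RA and -0.84 (SE 0.0602) at 1 µM RA, and a log2 difference of -0.29 between the doses. Of the lower *Sgk1* level at 1 µM RA, 15.9 of 18.8 RPKM (84.2%) lay in NM_011361. At 25 nM RA this was 11.5 of 15.6 RPKM (73.7%). The part at 1 µM RA is not independent of the choice of the gene by this transcript.

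The second transcript, NM_001161848, was at 6.50 and 6.65 RPKM in DMSO, 4.23 and 4.48 at 25 nM RA, and at 1 µM RA 5.16 and 4.46. It was lower in all 4 RA samples than in DMSO, but 1 sample with 1 µM RA lay within the range of 25 nM RA and the other above it. Its log2 change was -0.60 (SE 0.133) at 25 nM RA and -0.46 (SE 0.132) at 1 µM RA, and the log2 difference between the doses was 0.14 (SE 0.136). NM_001161850, which starts behind the window with the glucocorticoid receptor palindrome, was at 2.11 and 1.99 RPKM in DMSO, 0.938 and 0.295 at 25 nM RA, and at 1 µM RA 1.46 and 1.30. All 4 RA samples lay below DMSO, and the lowest values were those at 25 nM RA, where the duplicates lie far apart. The log2 change of NM_001161850 was -1.75 (SE 0.491) at 25 nM RA and -0.58 (SE 0.482) at 1 µM RA.

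The 3 other *Sgk1* transcripts were low, at 1.79 RPKM or less. NM_001161849 was at 1.66 and 1.79 RPKM in DMSO, 1.68 and 1.03 at 25 nM RA, and at 1 µM RA 0.884 and 1.65. One sample of each RA dose was close to DMSO and the other well below it. NM_001161845 lay between 0.0313 and 0.219 RPKM, with both extremes in the samples with 1 µM RA. NM_001161847 was at 0.0985 and 0.0998 RPKM in DMSO but between 0.0580 and 0.0714 RPKM in the 4 RA samples, which were all lower than DMSO on estimated counts of 6.6 to 13.2.

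As shares of the *Sgk1* RPKM, NM_011361 had 77.3% ± 0.230 (SD, n = 2) in DMSO, 79.1% ± 2.69 at the lower RA dose and 72.7% ± 0.906 at the higher. NM_001161848 had 14.0% ± 0.235, 13.9% ± 0.480 and 17.2% ± 1.91 in the same order. The share of NM_011361 was thus lower in both samples with 1 µM RA than in the other 4, and that of NM_001161848 higher. The level of NM_011361 at 1 µM RA chose the gene. Its share there, and with it those of the others, is not independent of that choice. The share of NM_001161850 was 4.4% in DMSO, 2.0% at 25 nM RA and then 4.9% at 1 µM RA. These shares rest on few reads, because reads in the 11 shared exons fit every transcript and were divided by the authors' estimation. With reads spread evenly along a transcript, 139.4 to 299.6 of the estimated counts of NM_011361 per sample would fall in its own 160 bases, and 16.9 to 34.8 of those of NM_001161848 in its own 104 bases. For NM_001161850 this was 4.2 to 31.7.

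**Figure D3:**
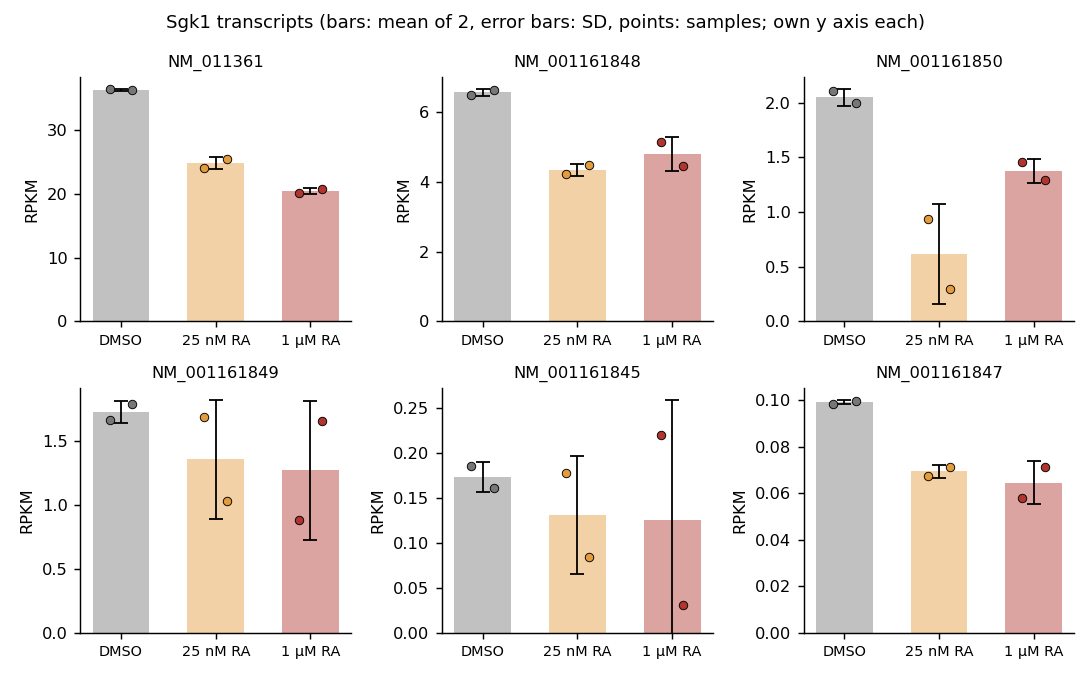
RPKM of each *Sgk1* transcript on a y axis of its own, by condition, with a point for each sample, bars for the mean of 2 samples and error bars for the SD. NM_011361 (36.3, 24.8 and 20.4 RPKM on average) is lower at each higher dose, while NM_001161848 and NM_001161850 have their lowest means at 25 nM RA.

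*Sgk3*, the kinase of the family that binds endosomes through a phosphoinositide-binding PX domain, was slightly lower with 25 nM RA. It lies on the plus strand of chromosome 1, from 9798130 to 9902568. Its level was 2.08 and 2.22 RPKM in DMSO, 1.79 and 1.86 at 25 nM RA, and at 1 µM RA 2.12 and 2.14. Both samples with 25 nM RA lay below the other 4, and those with 1 µM RA within the range of DMSO. *Sgk3* fell at 25 nM RA with a log2 change of -0.24 (95% interval -0.40 to -0.08, adjusted p = 0.049 by edgeR's likelihood ratio test, Benjamini-Hochberg adjusted over 15143 genes). At 1 µM RA its log2 change was -0.02 (-0.18 to 0.13, adjusted p = 0.91). Between the doses the log2 difference was 0.22 (0.06 to 0.38, adjusted p = 0.16), so that the doses were not shown to differ. The call at 25 nM RA was lost without DMSO replicate 2 (adjusted p = 0.45), without 25 nM RA replicate 1 (0.36), without 25 nM RA replicate 2 (0.16) and with DESeq2's Wald test (0.50).

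Of the 3 *Sgk3* transcripts, 1 was called at 1 µM RA, and differences between the transcripts in their change were not tested. NM_177547 was at 0.918 and 0.988 RPKM in DMSO, 0.756 and 0.701 at 25 nM RA, and at 1 µM RA 0.676 and 0.612. Its conditions do not overlap, and it was called lower at 1 µM RA with a log2 change of -0.57 (adjusted p = 0.070, likelihood ratio test over 22074 transcripts, of which 8.3% were called in either direction). That call was lost with 10 of 12 alternatives. Among them were edgeR's quasi-likelihood test (adjusted p = 0.13) and leaving out any 1 of the 6 samples (log2 change -0.65 to -0.49). NM_001037759, which starts 50151 bases downstream of the other 2 transcripts, was at 0.833 and 0.945 RPKM in DMSO, 0.831 and 0.957 at 25 nM RA, and at 1 µM RA 1.19 and 1.29. Both samples with 1 µM RA lay above the other 4, but the log2 change of 0.47 did not pass the test (adjusted p = 0.135). NM_133220 was the lowest transcript at 0.198 to 0.327 RPKM, with its highest values in DMSO and a log2 change of -0.35 at 1 µM RA (adjusted p = 0.67). The share of NM_001037759 in the *Sgk3* RPKM was 41.3% ± 1.74 in DMSO, 49.0% ± 3.56 at the lower dose and 58.3% ± 3.14 at the higher. That of NM_177547 was 44.3%, 40.04% and 30.3%. The 3 transcripts end at the same base and had estimated counts of 42.4 to 306.7 per sample. Reads that fit several of them were divided by the authors' estimation, and how many reads tell them apart was not determined.

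**Figure D4:**
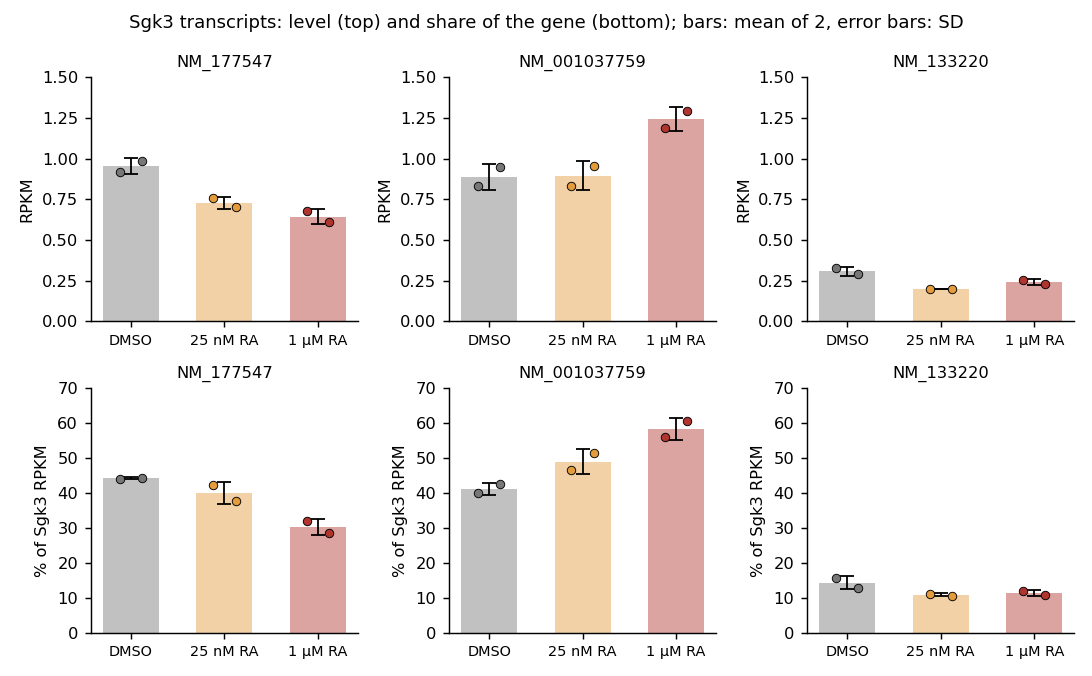
RPKM (upper row) and share of the *Sgk3* RPKM in percent (lower row) of the 3 *Sgk3* transcripts, by condition, with a point for each sample, bars for the mean of 2 samples and error bars for the SD. With 1 µM RA the share of NM_001037759 reaches 58.3% and that of NM_177547 drops to 30.3%, with reads divided by the authors' estimation.

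*Akt1* and *Akt2* had no detectable response to either dose. *Akt1*, known for its role in survival and growth, lies on the minus strand of chromosome 12, from 112653821 to 112674276. It was at 25.8 and 25.8 RPKM in DMSO, 26.7 and 26.1 at 25 nM RA, and at 1 µM RA 24.4 and 26.0. The samples with 25 nM RA were the highest, but the log2 change was 0.03 (95% interval -0.07 to 0.13, adjusted p = 0.90) at 25 nM RA and -0.04 (-0.14 to 0.06, adjusted p = 0.65) at 1 µM RA, by edgeR's likelihood ratio test. *Akt2*, known for its role in glucose uptake, lies on the plus strand of chromosome 7, from 27591560 to 27639453. Its level was 22.1 and 22.7 RPKM in DMSO, 22.9 and 22.2 at 25 nM RA, and at 1 µM RA 21.7 and 22.5. The 3 conditions of *Akt2* overlap, with a 95% interval of the log2 change from -0.10 to 0.10 at 25 nM RA (adjusted p = 1.00) and from -0.13 to 0.07 at 1 µM RA (adjusted p = 0.76). For both genes these intervals leave out changes as large as that of *Sgk1*.

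Each gene had 1 main transcript. NM_009652 had 88.1% of the *Akt1* RPKM in DMSO and 87.8% with 1 µM RA, and NM_007434 had 80.0% and 81.6% of the *Akt2* RPKM. None of the 4 *Akt1* and *Akt2* transcripts was called at either dose or between doses, where 3.69% of all transcripts tested were called at 25 nM RA and 1.8% between the doses. *Sgk2* had estimated counts of 3 to 10 per sample and was not tested.

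The genes with the pattern most like *Sgk1* were found by Pearson's r of log2 normalized counts over the 6 samples, among 11094 other genes with a mean of at least 1 RPKM. They were *Id1*, a target of BMP signaling that inhibits helix-loop-helix factors (r = 0.9987), *Gcnt2*, a glycosyltransferase gene (0.9978), *Kcna1*, a potassium channel gene (0.9965), *Evx1*, a homeobox gene of the primitive streak (0.9962), and *Adamts15*, a protease gene (0.9962). The 6 points form 3 conditions of 2, so that r describes the order and spacing of the conditions. *Id1* was at 15.8 and 16.5 RPKM in DMSO, 9.74 and 9.96 at 25 nM RA, and at 1 µM RA 8.71 and 8.60. For these 5 genes, 78.3% to 89.9% of the difference in mean RPKM between 1 µM RA and DMSO was present at 25 nM RA, beside the 82.7% of *Sgk1*. Choosing genes by r sets this spacing, so these percentages are no further likeness to *Sgk1*. The nearest genes of the tables on the 5′ side of *Sgk1*, *1700020N01Rik* and *Aldh8a1*, had at most 3 reads per sample. On the 3′ side, 66.4 kb away, *4930444G20Rik* was not called at either dose (0.107 RPKM in DMSO), and *E030030I06Rik*, 113.1 kb away, had 2.19 RPKM in DMSO and 1.73 RPKM with 1 µM RA. The latter was called with a log2 change of -0.30 (adjusted p = 0.089), a call that was lost with 10 of 12 alternatives, among them leaving out either DMSO sample, replicate 1 of 1 µM RA or either sample with 25 nM RA (0.10 to 0.51).

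Upstream of the kinases, 8 of 16 PI3-kinase and receptor adaptor genes tested fell and 0 rose at 1 µM RA, against 11.2% of all genes called lower and 8.54% called higher, and their median log2 change was -0.17. At 25 nM RA 2 fell, where 4.5% of all genes were called higher and 3.55% lower. *Irs1*, the adaptor of insulin and IGF receptors, was at 2.43 and 2.55 RPKM in DMSO, 1.87 and 1.92 at 25 nM RA, and at 1 µM RA 1.81 and 1.77. All 4 RA samples lay below DMSO, with a log2 change of -0.48 (SE 0.0674, adjusted p = 3.5e-11) at 1 µM RA. *Pik3c2b*, a class II PI3-kinase, fell by 0.51 on the log2 scale (adjusted p = 1.9e-10), *Igf1r*, the IGF receptor, by 0.28 (4.9e-05) and *Irs2* by 0.28 (0.00026).

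PDK1 and mTORC2 phosphorylate SGK and AKT, and the list that holds their genes also holds genes of mTORC1 and its regulators. Genes of this list were mostly not called. *Pdpk1*, which encodes PDK1, was at 11.7 RPKM in DMSO and 11.5 RPKM with 1 µM RA (log2 change -0.03, adjusted p = 0.80). The mTORC2 subunits *Mtor* (-0.06), *Rictor* (-0.07), *Mapkap1* (0.04) and *Mlst8* (-0.02) were not called at 1 µM RA either, with adjusted p from 0.40 to 0.90. Of 14 genes on this list 3 fell and 0 rose at 1 µM RA, with a median log2 change of -0.07, and 0 were called at 25 nM RA, where 11.2% of all genes were called lower at 1 µM RA and 3.55% at 25 nM RA. The 3 were *Tsc2*, an inhibitor of mTORC1 (-0.22), *Rptor*, an mTORC1 subunit (-0.17), and *Prr5*, an mTORC2 subunit (-0.21). Each of these calls was lost without a single sample. For *Tsc2* this was DMSO replicate 1, and for *Rptor* DMSO replicate 2 or 1 µM RA replicate 1. For *Prr5* it was DMSO replicate 2 or either sample with 1 µM RA. With DESeq2's Wald test the calls of *Rptor* (adjusted p = 0.11) and *Prr5* (0.28) were lost too.

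Of 10 phosphatase genes tested, 1 rose and 2 fell at each dose, beside 8.54% of all genes called higher and 11.2% lower at 1 µM RA, and 4.5% and 3.55% at 25 nM RA. At 1 µM RA these counts lie near the shares of all genes. At 1 µM RA *Inppl1*, a lipid phosphatase that opposes PI3-kinase, rose by 0.18 (adjusted p = 0.0038). *Phlpp1* (-0.25, 0.0029) and *Phlpp2* (-0.30, 0.0032), phosphatases of the AKT hydrophobic motif, fell at 1 µM RA. The call of *Inppl1* was lost without DMSO replicate 1. That of *Phlpp2* was lost without DMSO replicate 1 or 1 µM RA replicate 1, and with DESeq2's Wald test (adjusted p = 0.102). The other AGC kinases were mostly not called, with 4 higher and 2 lower of 25 at 1 µM RA and 3 higher and 1 lower at 25 nM RA, against the same shares. *Rps6ka4*, a kinase of the MSK type, was at 1.26 and 1.36 RPKM in DMSO, 2.12 and 2.198 at 25 nM RA, and at 1 µM RA 2.06 and 1.94. It rose by 0.61 at 1 µM RA (SE 0.109, adjusted p = 5.4e-07). *Rock2*, a kinase of the actin cytoskeleton, rose by 0.29 (1.5e-07) and *Rps6ka3*, a kinase of the RSK type, by 0.37 (0.00067), and *Lats2*, of the Hippo pathway, fell by 0.26 (0.036). The call of *Rps6ka3* was lost without DMSO replicate 1, and that of *Lats2* without either DMSO sample or 1 µM RA replicate 2. With DESeq2's Wald test the calls of *Rps6ka3* (adjusted p = 0.14) and *Lats2* (0.28) were lost too.

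Of 22 genes that encode SGK and AKT substrates, 6 fell and 2 rose at 1 µM RA, and 4 fell and 0 rose at 25 nM RA. Of all genes, 11.2% were called lower and 8.54% higher at 1 µM RA, and 3.55% and 4.5% at 25 nM RA, so that the 2 that rose are near the share of all genes. *Wnk1*, a kinase of ion transport, was at 10.7 and 11.8 RPKM in DMSO, 8.98 and 9.71 at 25 nM RA, and at 1 µM RA 7.87 and 7.42. Its 3 conditions do not overlap, and it fell by 0.57 at 1 µM RA (SE 0.0626, adjusted p = 8.8e-18) and by 0.30 from 25 nM to 1 µM RA (adjusted p = 0.00042). Without 25 nM RA replicate 2 the difference of *Wnk1* between the doses was not called (0.11), and without DMSO replicate 2 its change at 25 nM RA was not (0.16). *Gsk3b*, a kinase inhibited by AKT, fell by 0.38 at 1 µM RA (4.5e-11), while its relative *Gsk3a* had a log2 change of -0.03 (0.76). The intermediate filament gene *Vim* fell by 0.29 (9.1e-07). *Ndrg1*, whose phosphorylation is the usual readout of SGK1 activity, rose by 0.20 in RNA level (0.0080), a call lost without DMSO replicate 1 (0.22). The ubiquitin ligase gene *Nedd4l* had a log2 change of -0.06 (0.65).

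Among the FOXO genes, *Foxo4* was the most abundant at 30.6 RPKM in DMSO and fell by 0.13 at 1 µM RA (adjusted p = 0.055). This call of *Foxo4* was lost without either DMSO sample, without 1 µM RA replicate 1 and with DESeq2's Wald test (adjusted p = 0.11). *Foxo1* (1.92 RPKM in DMSO), *Foxo3* (8.59 RPKM) and *Foxo6* (0.180 RPKM) were not called at 1 µM RA, with adjusted p of 0.66, 0.44 and 0.91. Of 20 genes known as FOXO targets, 7 fell and 2 rose at 1 µM RA, with a median log2 change of -0.06, and 3 fell and 2 rose at 25 nM RA. Over all genes the shares called lower and higher were 11.2% and 8.54% at 1 µM RA and 3.55% and 4.5% at 25 nM RA, and the 2 that rose at 1 µM RA are near that share. *Gadd45a*, a gene of the growth arrest and DNA damage response, was at 6.50 and 6.03 RPKM in DMSO, 12.0 and 12.9 at 25 nM RA, and at 1 µM RA 17.2 and 14.1, a log2 change of 1.31 (adjusted p = 1.6e-38) at 1 µM RA. The transcriptional regulator *Cited2* fell by 0.82 (2.1e-25), the zinc finger factor *Klf6* by 0.37 (1.3e-11) and the cell cycle inhibitor *Cdkn1a* by 0.41 (3.0e-07).

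*Sgk1* is known as a glucocorticoid-induced and serum-induced gene, and the other genes of both kinds moved in either direction. Of 12 other genes on the glucocorticoid list that were tested, 3 fell and 2 rose at 1 µM RA, and 1 fell and 3 rose at 25 nM RA, against 11.2% lower and 8.54% higher of all genes at 1 µM RA, and 3.55% and 4.5% at 25 nM RA. *Nr3c1*, the glucocorticoid receptor gene, rose by 0.27 at 1 µM RA (adjusted p = 0.0013), a call lost without 1 µM RA replicate 1 (0.10), and *Nr3c2*, the mineralocorticoid receptor gene, was at 0.0756 to 0.0893 RPKM on average. *Ddit4*, an inhibitor of mTORC1, fell by 0.59 (3.5e-13), the clock gene *Per1* fell by 0.70 (1.8e-07) and the transcription factor *Klf9* rose by 0.29 (3.3e-05). *Tsc22d3* (log2 change -0.04, adjusted p = 0.77) and *Fkbp5* (-0.02, 0.85), widely used markers of glucocorticoid receptor activity, were not called at 1 µM RA. Of 22 serum-induced immediate early genes, 9 fell and 8 rose at 1 µM RA, and 7 fell and 6 rose at 25 nM RA, beside the same shares of all genes. *Myc* was at 12.4 and 10.8 RPKM in DMSO, 8.23 and 7.18 at 25 nM RA, and at 1 µM RA 6.79 and 5.75, and it fell by 0.90 at 1 µM RA (2.4e-22). *Ier5*, an immediate early response gene, fell by 0.73 (8.5e-21). In the other direction, the ERK phosphatase gene *Dusp5* rose by 1.22 at 1 µM RA (3.5e-48) and the transcription factor *Atf3* by 0.93 (3.3e-26).

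Of 18 channel and transporter genes that SGK1 is known to regulate, 9 had enough counts to be tested, and 1 rose and 0 fell at each dose. Of all genes, 11.2% were called lower and 8.54% higher at 1 µM RA, and 3.55% and 4.5% at 25 nM RA. The 1 of 9 that rose at 1 µM RA is thus near the share of all genes. The gene that rose was *Slc2a1*, which encodes the glucose transporter GLUT1. It was at 71.1 and 70.04 RPKM in DMSO, 93.5 and 86.9 at 25 nM RA, and at 1 µM RA 88.2 and 90.8. All 4 RA samples lay above DMSO, with a log2 change of 0.34 (adjusted p = 8.3e-10) at 1 µM RA. Over all pathway lists together, with genes of several lists counted once, 144 genes other than *Sgk1*, *Sgk3*, *Akt1* and *Akt2* were tested, of which 37 fell and 20 rose at 1 µM RA and 20 fell and 16 rose at 25 nM RA. As shares these were 25.7% lower and 13.9% higher at 1 µM RA, against 11.2% and 8.54% of all genes, and 13.9% lower and 11.1% higher at 25 nM RA, against 3.55% and 4.5%. Directly between the doses, 8 were lower and 3 higher at 1 µM RA, where 2.62% of all genes were called lower and 0.792% higher. The median log2 change of the 144 genes was -0.06 at 1 µM RA, against 0.0013 for all genes tested. The lists were chosen with earlier results of these data known. Their counts are therefore a description, and the part of that choice in them was not tested.

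**Figure D5:**
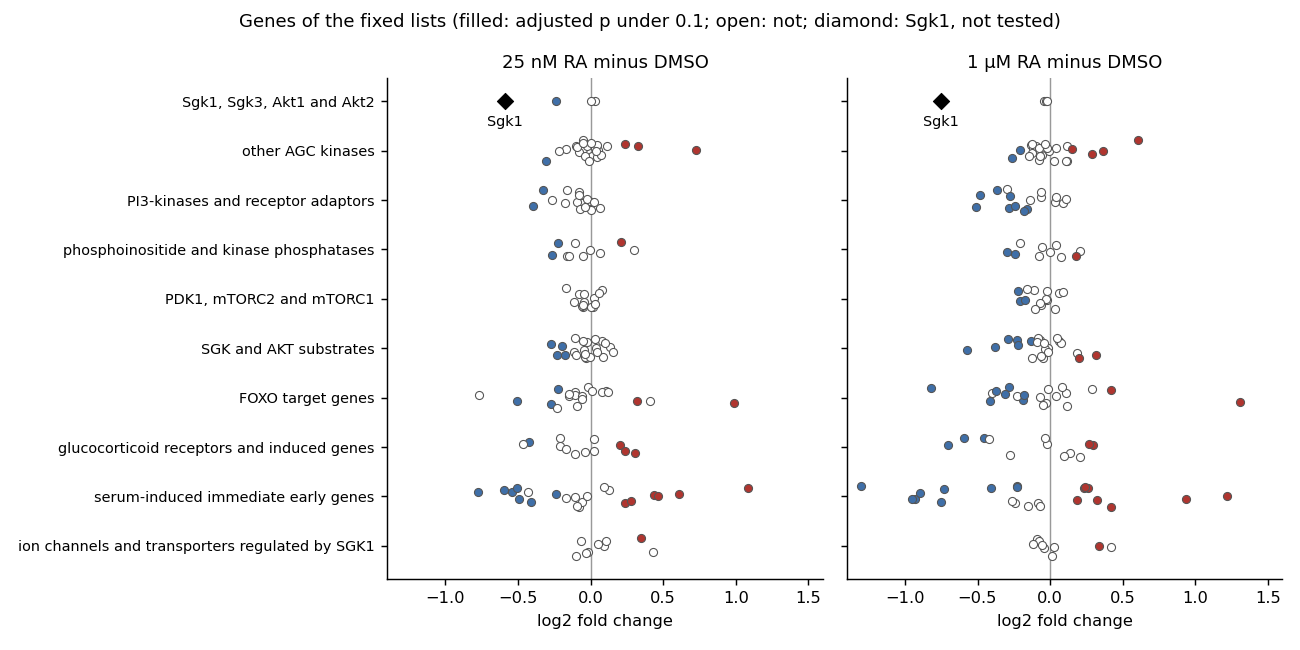
Log2 change against DMSO on the x axis for *Sgk1*, *Sgk3*, *Akt1* and *Akt2* and for the genes of 9 fixed lists (y axis), at 25 nM RA (left) and 1 µM RA (right), with a point for each gene, filled where the adjusted p was under 0.1. *Sgk1* (diamond, not tested) lies at -0.59 and -0.75, apart from the other 3 genes of its line, while the immediate early genes spread to both sides and 8 of the 16 PI3-kinase and adaptor genes are filled at 1 µM RA, all below 0.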

How the data were processed

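Total RNA depleted of ribosomal RNA was sequenced as stranded single-end libraries. Per the labels and methods, the authors aligned the reads to mm10 with TopHat2 2.0.13 and Bowtie2 2.2.5.0 and estimated transcript abundance in Partek 6.6 by expectation-maximization. The deposited estimated counts are not normalized, and the deposited RPKM values were scaled by the authors to transcript length and reads. Gene values are sums over transcripts. Estimated counts were rounded to whole numbers and fitted in edgeR 4.0.16 (R 4.3.3) for all 6 samples, using TMM, filterByExpr and the likelihood ratio test named in the methods, and p-values were adjusted over all 15143 genes or 22074 transcripts. A call needed an adjusted p under 0.1. RPKM is given with the SD of duplicates and a log2 change with its SE, and 95% intervals span 1.96 SE to each side.

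The members and lists were chosen with earlier results of these data known. From each list, up to 4 genes called at 1 µM RA with the smallest adjusted p and a mean of at least 1 RPKM are named, beside the members, their family, activators, FOXO and glucocorticoid genes, and the 5 genes most like *Sgk1*. Each result was also computed by edgeR's quasi-likelihood test, by DESeq2 1.42.0, with its size factors, no filter, a replicate block, the 4 samples compared and each sample left out. Scripts were tested on simulated data. Tables and figures were made with Python, pandas and matplotlib.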

Additional observations from a re-analysis of the deposited data

How the results depend on the processing

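The log2 change of *Sgk1* kept its direction under all alternatives run. Leaving out each sample in turn, it ranged from -0.60 to -0.58 at 25 nM RA, from -0.75 to -0.74 at 1 µM RA and from -0.17 to -0.15 between the doses, and from the mean RPKM it was -0.74 at 1 µM RA. Where a sample was left out, the lone sample was assumed to vary like the others. With the replicate block in the fit it was -0.7494 at 1 µM RA. However, same-numbered samples did not deviate together (correlations across genes of -0.0655, 0.0736 and -0.0949), so that they share only a number. Among the *Sgk1* transcripts, the sign of NM_001161845 turned with a sample left out, at 25 nM RA (range -0.99 to 0.0057) and 1 µM RA (-2.55 to 0.35). Between the doses, the ranges of NM_001161845 (-2.12 to 0.78) and NM_001161849 (-0.60 to 0.29) also crossed 0. The sign of the *Akt2* change at 25 nM RA, which was near 0, turned with DESeq2's Wald test (-0.0011), its size factors (-0.0011), no filter (-0.0007) and in the range over samples left out (-0.0273 to 0.0294). That of *Sgk3* at 1 µM RA turned without DMSO replicate 2 (0.0330, range -0.0767 to 0.0330), and that of NM_001037759 at 25 nM RA without DMSO replicate 1 or 25 nM RA replicate 2 (range -0.11 to 0.11). The last comparison and those of named genes were added after the data were seen. The call of NM_177547 at 1 µM RA was also lost with the replicate block (adjusted p = 0.15).

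Genes of the pathway lists called lower at 25 nM RA were 12 by DESeq2's Wald test in place of 20, and 12 to 21 with a sample left out. Between the doses, 5 were lower by the quasi-likelihood test and 1 by DESeq2 in place of 8, and 1 was higher by DESeq2 in place of 3. Leaving out a sample gave 2 to 8 lower and 1 to 3 higher. Over all genes, DESeq2 called 182 lower and 385 higher at 25 nM RA in place of 538 and 681, and 868 lower and 726 higher at 1 µM RA in place of 1690 and 1293. Between the doses the counts were 119 lower and 39 higher by DESeq2 and 259 and 77 by the quasi-likelihood test, in place of 396 and 120. Over all genes, the counts lower at 25 nM RA were 294 to 357 without either DMSO or either 25 nM RA sample. At 1 µM RA, 1126 were lower without DMSO replicate 1, and 834 and 782 higher without DMSO replicate 1 or 2. Between the doses, 145 and 199 were lower and 60 and 48 higher without 25 nM RA replicate 1 or 2, and 223 were higher without 1 µM RA replicate 2. Of the named genes called, 35 of 47 at 1 µM RA, 28 of 35 at 25 nM RA and 5 of 18 between the doses were called under all 12 alternatives. The cause of these differences was not tested.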
